A study of Homo sapiens with 20 samples.

Results

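The prostate kallikreins examined here were KLK2, KLK3, KLK4, KLK11 and KLK15. They were taken as the rows of the deposited count tables that carry these symbols, which gave 5 of the 57773 genes counted. Each was followed across 10 conditions of LNCaP, an established androgen-sensitive cell line from a metastasis of human prostate adenocarcinoma. Parental LNCaP cells were transfected for 2 days with 20 nM of a nontarget control siRNA pool (siNTC, n = 2) or of a pool against EHMT1 (siEHMT1, n = 2). LNCaP-tet-EHMT1 cells, which carry a lentiviral, doxycycline-inducible, V5-tagged EHMT1, were kept in vehicle (Veh) or in 0.25 µg/mL of doxycycline (Dox) for 2 days. The inducible EHMT1 was wild type (WT), K450R, K451R or K450RK451R, substitutions of lysine by arginine at 1 or both of a pair of neighbouring residues. All cells carry the line's own EHMT1, and the stable lines were selected as puromycin-resistant pools. No line without an EHMT1 insert was analysed here, so doxycycline itself and the induced EHMT1 cannot be told apart. The study silenced EHMT1, which with EHMT2 methylates lysine 9 of histone H3, and induced its variants to learn which genes it controls.

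Tissue kallikreins are secreted serine proteases encoded by a gene cluster on chromosome 19. KLK3, better known as prostate-specific antigen (PSA), cleaves the gel-forming semenogelins of semen and is the serum marker of prostate cancer. KLK2 and KLK15 can activate the PSA zymogen in vitro, KLK4 is best known for its part in enamel maturation and is also made by the prostate, and KLK11 is a further member found in prostate and other epithelia. In luminal prostate cells androgens induce KLK3 and KLK2 through their promoters and upstream enhancers, at which lineage factors such as FOXA1 and HOXB13 also bind, and both genes serve as a common readout of the androgen response.

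KLK3 and KLK2 are neighbouring copies of one ancestral gene, and the stretch before their start sites shows how alike they still are. The KLK3 stretch, from 180 to 11 bases before its start site, is printed because the ratio of this pair is followed below. It lies at chr19:50854735-50854904 on the plus strand of GRCh38.p14 (sequence from RefSeq) and was found once, unchanged, at chr19:51357991-51358160 of GRCh37, the build of the counts. Capitals mark runs of at least 12 bases that are identical in the same stretch before KLK2 (chr19:50873259-50873428 of GRCh38.p14, plus strand). On GRCh37 the KLK2 stretch is at chr19:51376515-51376684, inside the annotated span of KLK2 (51364824 to 51383823). It thus lies before the RefSeq start site used here and not before the outermost annotated one.
KLK3: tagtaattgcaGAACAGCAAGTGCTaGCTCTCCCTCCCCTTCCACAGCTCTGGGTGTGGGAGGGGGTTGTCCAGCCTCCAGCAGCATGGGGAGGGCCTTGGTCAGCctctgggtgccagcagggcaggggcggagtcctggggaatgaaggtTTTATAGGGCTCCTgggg

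In an alignment of these stretches, 151 of 164 aligned bases were identical (92.1%), with a longest identical run of 80 bases. TATAAA, the TATA box, was searched on both strands in windows from 250 bases before to 50 bases after the start site. A match lay 28 bases before the KLK3 start site and 34 bases before that of KLK2, and 1 of the 2 KLK15 windows also held one. In KLK3 and KLK2 the match was the reverse complement, which reads TTTATA on the plus strand printed above. A match on either strand was found in 11.5% of 35116 human promoter windows of this length. These matches describe the letters only. The pair could share sequencing reads, but only 10 of 1414 words of 51 bases (the read length) in the KLK3 transcript also occurred in KLK2 (0.71%), and only 10 of 2779 KLK2 words occurred in KLK3 (0.36%). KLK4, KLK11 and KLK15 had no such word in another gene. The words came from 1 transcript per gene, with 1464 bases for KLK3 and 2829 for KLK2, and had to match exactly. All annotated exons together have 4639 and 6351 bases. Reads from the other exons or with mismatches were not covered, so full separation of the 5 counts was not tested.

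Total counts were 5593400 to 12438006 per siRNA sample. The 2 columns of each stable-line condition differed by no more than counting noise (chi-square per degree of freedom 0.995 to 1.02), and were summed to 1 sample per condition with 8436791 to 12407739 counts. A Dox effect therefore has its replication in the 4 lines and none within a line. The mitochondrial ribosomal RNA MT-RNR2 took 20.7% to 25.5% of the siRNA counts and 7.26% to 13.1% of the stable-line counts. EHMT1 fell from 85.5 ± 2.91 to 29.9 ± 1.06 CPM (counts scaled to library size with edgeR's TMM factors; SD, n = 2 each) when silenced, and the log2 fold change was -1.51. With Dox it rose in every line, to between 661 and 840 CPM from between 71.6 and 88.7 CPM. All 8 luminal prostate markers used were above the detection floor (3 counts) in every library and summed to 2493 to 3753 CPM. The 8 basal and urothelial markers summed to 3.58 to 18.2 CPM, of which UPK3A alone was above the floor throughout (15 to 165 counts), KRT14 reached 18 counts, UPK2 reached 7, CD44 and KRT15 each reached 5, and KRT5, TP63 and NGFR never passed the floor. The 7 neuroendocrine markers summed to 24.3 to 416.9 CPM, of which ENO2 had 176 to 4942 counts, SYP 2 to 25 and NCAM1 at most 5, and CHGA, CHGB, NEUROD1 and INSM1 had 0 counts throughout. Fibroblast and stromal markers summed to at most 114.8 CPM, and blood and endothelial markers to at most 16.6 CPM. Of these, VIM (66 to 960 counts), COL1A1 (78 to 483), ACTA2 (19 to 87) and VWF (33 to 196) were above the floor throughout. PDGFRB reached 20 counts, COL3A1 17, CD68 6 and LYZ 5, and COL1A2, DCN, LUM, PTPRC, CD3E, HBB and CDH5 never passed the floor.

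KLK3 was among the most abundant messages of these cells. Scaled to exon length (RPKM over all annotated exons), it ranked between 4 and 7 of 19391 nuclear protein-coding genes in every library. Its mean RPKM was 648 over the 4 siRNA samples and 1683 over the 8 stable-line conditions. KLK2 followed with 91.5 and 189 RPKM, ranking 99 to 232. KLK4 had 25.6 and 49.5 RPKM, with ranks of 464 to 1296. KLK15 was detected throughout at a mean of 2.13 and 1.56 RPKM. KLK11 was listed at 0 counts in 11 of the 12 libraries, and the single exception, siEHMT1 sample 1, had 2 counts. The largest value that a count of 0 allows was 0.536 CPM, in the shallowest library. The order KLK3, KLK2, KLK4, KLK15 and KLK11 held in each library, on this scale and in counts.

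**Figure D1:**
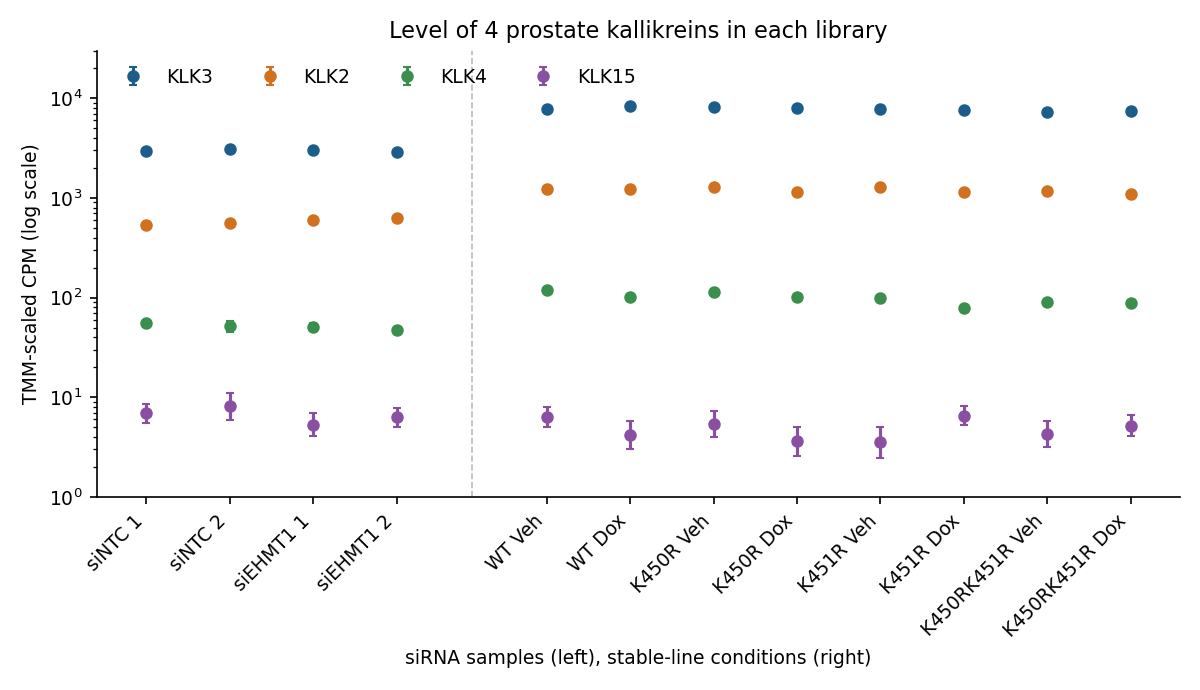
Level of KLK3, KLK2, KLK4 and KLK15 in each library, as TMM-scaled CPM on a log axis, with 95% counting intervals (hidden by the points where narrow). The dashed line separates the siRNA samples from the stable-line conditions, which were scaled separately; KLK3 lies between 2909 and 3119 CPM on the left and between 7332 and 8303 CPM on the right.

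The 5 genes together took 0.339% to 0.381% of the counts of an siRNA library and 0.859% to 0.956% of a stable-line library. KLK3 alone made up 81.2% to 83.5% of the kallikrein counts in the former and 85.1% to 86.4% in the latter. Mean CPM was higher in the stable-line conditions than in the siRNA samples by 2.60 times for KLK3, 2.07 times for KLK2 and 1.93 times for KLK4, whereas for KLK15 it was 0.733 times as high. With counts on nuclear protein-coding genes as the denominator, these became 2.25, 1.79, 1.67 and 0.637 times. The tables come from separate experiments and were scaled separately, so the lines, culture and library preparation cannot be told apart and the difference was not tested.

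KLK3 showed no detectable response to EHMT1 silencing. The control samples had 31217 and 15813 KLK3 counts, the silenced samples 29346 and 36531. After scaling they were 2942 and 3119 CPM with siNTC and 3056 and 2909 CPM with siEHMT1, so that 1 siEHMT1 value lay between the control values and the other below both. The means were 3030 ± 125.2 and 2983 ± 104.0 CPM (SD, n = 2 each). The log2 fold change was -0.022 (SE 0.12, 95% interval -0.26 to 0.22, adjusted p = 0.980 by the quasi-likelihood test of edgeR, adjusted after Benjamini and Hochberg over 14532 genes). The interval corresponds to 0.833 to 1.16 of the control level. The sign was positive without siNTC sample 2 (0.019) or without siEHMT1 sample 2 (0.015). In the same fit 19 genes, or 0.131% of those tested, passed an adjusted p of 0.05, and none of the 4 kallikreins tested was among them.

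In the stable lines KLK3 showed no detectable Dox effect. It went from 7741 to 8303 CPM with Dox in WT, from 8095 to 7937 in K450R, from 7836 to 7696 in K451R and from 7332 to 7521 in K450RK451R. It was thus higher with Dox in the WT and K450RK451R lines and lower in the lines with a single substitution, and the Veh and Dox ranges overlapped. On library totals alone, KLK3 was also higher with Dox in K451R (7610 to 8175 CPM) and stayed lower in K450R (7797 to 7778 CPM). Across the 8 conditions the highest level was 1.13 times the lowest, and without replicates no neighbours in this order can be told apart. The average Dox effect was a log2 fold change of 0.021 (SE 0.05, 95% interval -0.09 to 0.13, adjusted p = 0.909 by edgeR), that is 0.939 to 1.10 of the Veh level. It was -0.0058 without the WT line. Across these lines 298 of 14105 genes (2.11%) passed, again with no kallikrein. The Dox effect in the 3 mutant lines differed from that in WT by a log2 of -0.11 (SE 0.09, 95% interval -0.28 to 0.07, adjusted p = 0.853 by edgeR), in a test passed by 23 genes (0.163%).

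KLK2, the neighbour of KLK3, was higher with silencing and lower with Dox, without passing the test in either. It had 537 and 559 CPM with siNTC and 607 and 622 CPM with siEHMT1. Both silenced samples were above both controls. Groups that did not overlap, in either direction, were seen for 39.7% of all genes tested. The log2 fold change was 0.17 (SE 0.09, 95% interval -0.02 to 0.35, adjusted p = 0.572 by edgeR). With Dox it went from 1235 to 1224 CPM in WT, from 1299 to 1142 in K450R, from 1273 to 1156 in K451R and from 1187 to 1102 in K450RK451R. On the TMM scale all 4 lines were lower with Dox, which was true of 10.2% of genes, and the WT line by less than its counting error. On library totals alone, KLK2 rose with Dox in WT (1182 to 1201 CPM) and K450RK451R (1183 to 1208 CPM) and fell in K450R and K451R. The average log2 fold change was -0.11 (SE 0.05, 95% interval -0.21 to -0.0060, unadjusted p = 0.0391 and adjusted p = 0.308 by edgeR), and 14.4% of genes had an unadjusted p under 0.05. The mutant lines differed from WT by a log2 of -0.13 (SE 0.10, 95% interval -0.33 to 0.06, adjusted p = 0.837 by edgeR).

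KLK4 had the lowest unadjusted p of the kallikreins. In the siRNA samples it was at 55.5 and 51.5 CPM with siNTC and at 51.2 and 46.7 CPM with siEHMT1, a log2 fold change of -0.13 (SE 0.11, 95% interval -0.36 to 0.10, adjusted p = 0.751 by edgeR). With Dox it went from 118.9 to 101.7 CPM in WT, from 114.1 to 101.0 in K450R, from 99.8 to 78.1 in K451R and from 90.9 to 88.5 in K450RK451R. On the TMM scale all lines were lower with Dox, as were 10.2% of genes tested. The change in K450RK451R was within counting error, and the Veh and Dox ranges overlapped because the lines themselves differed. Scaled to library totals alone, KLK4 rose with Dox in K450RK451R (90.61 to 97.05 CPM) and fell in the other lines. The average log2 fold change was -0.20 (SE 0.06, 95% interval -0.33 to -0.06, unadjusted p = 0.00518 and adjusted p = 0.117 by edgeR). The mutant lines and WT differed by 0.039 (SE 0.15, 95% interval -0.26 to 0.33, adjusted p = 0.978 by edgeR).

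**Figure D2:**
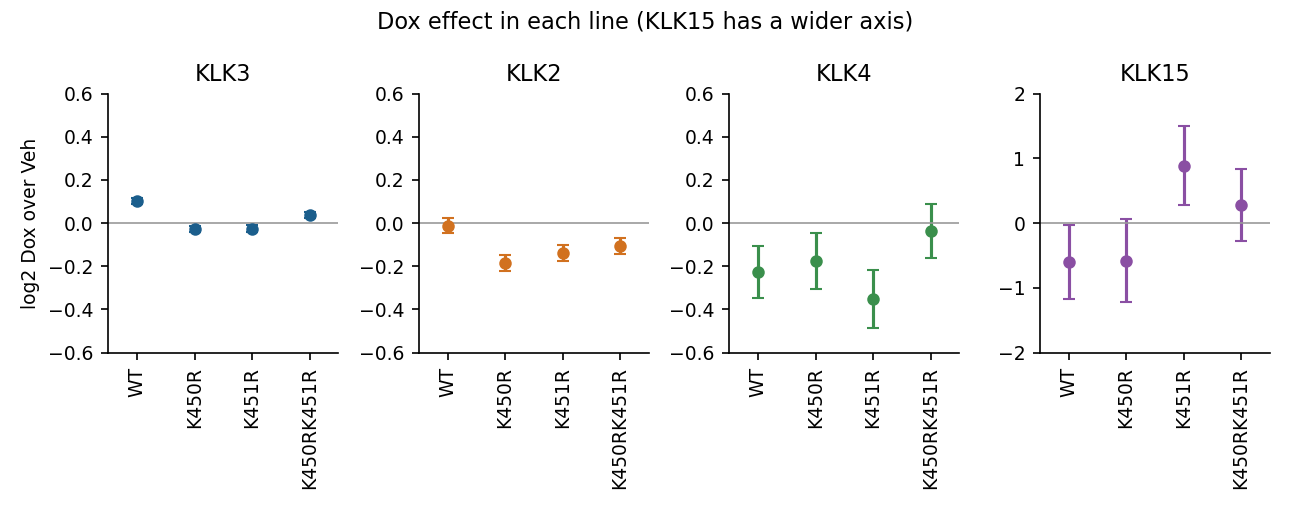
Log2 ratio of Dox to Veh in TMM-scaled CPM for each kallikrein in each of the 4 stable lines, with 95% intervals that cover counting error only. KLK3 stays between -0.028 and 0.10, KLK2 and KLK4 lie below 0 in all lines, and KLK15, on a wider axis, lies below 0 in WT and K450R and above 0 in K451R and K450RK451R.

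KLK15 was counted too rarely for small changes to be seen. There were 73 and 41 counts in the control samples and 51 and 79 after silencing, or 7.48 ± 0.854 and 5.80 ± 0.693 CPM (SD, n = 2 each). The log2 fold change was -0.35 (SE 0.25, 95% interval -0.86 to 0.17, adjusted p = 0.688 by edgeR). With Dox it went from 6.32 to 4.16 CPM in WT, from 5.41 to 3.62 in K450R, from 3.52 to 6.49 in K451R and from 4.25 to 5.18 in K450RK451R. The lines thus split, with the lowest Veh level and the highest Dox level both in K451R. The average was 0.013 (SE 0.24, 95% interval -0.48 to 0.50, adjusted p = 0.990 by edgeR), and -0.27 without K451R and -0.087 without K450RK451R. The mutants differed from WT by a log2 of 0.84 (SE 0.52, 95% interval -0.22 to 1.90, adjusted p = 0.791 by edgeR). A noncoding gene on the opposite strand overlaps KLK15, with 18 counts in all 4 siRNA samples together and 18 in the stable lines. KLK11 did not pass the filter on low counts and was not tested.

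Ratios within a library are free of the scaling between libraries. In the stable lines the KLK2 to KLK3 ratio was lower with Dox in all 4 lines, which was true of 13.1% of the genes tested there. The KLK2 level itself ran from 1187 to 1299 CPM with Veh and from 1102 to 1224 CPM with Dox. For every 100 KLK3 counts there were 18.3 and 17.9 KLK2 counts with siNTC and 19.9 and 21.4 with siEHMT1. In the stable lines the value went with Dox from 15.95 to 14.7 in WT, from 16.05 to 14.4 in K450R, from 16.2 to 15.02 in K451R and from 16.2 to 14.7 in K450RK451R. Both siEHMT1 values were above both siNTC values, which was true of 20.6% of genes. The direction was thus up with silencing and down with Dox. The log2 ratio differed by 0.19 with siEHMT1, with an SD of 0.020 within siNTC and 0.075 within siEHMT1 (two-sided exact permutation p = 0.333, the smallest that 2 against 2 samples allow). It differed by -0.13 ± 0.022 with Dox (SD over the 4 lines, lower in 4 of 4, two-sided exact sign-flip permutation p = 0.125, the smallest that 4 lines allow). After Benjamini-Hochberg adjustment over the 8 ratio tests, these exact p-values were 0.533 and 0.5.

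The same pattern against KLK3 was seen in other genes. The ratio to KLK3 was lower with Dox in all 4 lines for 13.1% of the genes tested there, higher in both siEHMT1 samples than in both controls for 20.6%, and both for 410 of 13616 genes (3.01%), KLK2 included. With library sizes set to the KLK3 count, a fit chosen after the data were seen, the log2 change of KLK2 relative to KLK3 was 0.19 with siEHMT1 (SE 0.11, adjusted p = 0.696 by edgeR) and -0.13 with Dox (SE 0.05, adjusted p = 0.165 by edgeR).

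**Figure D3:**
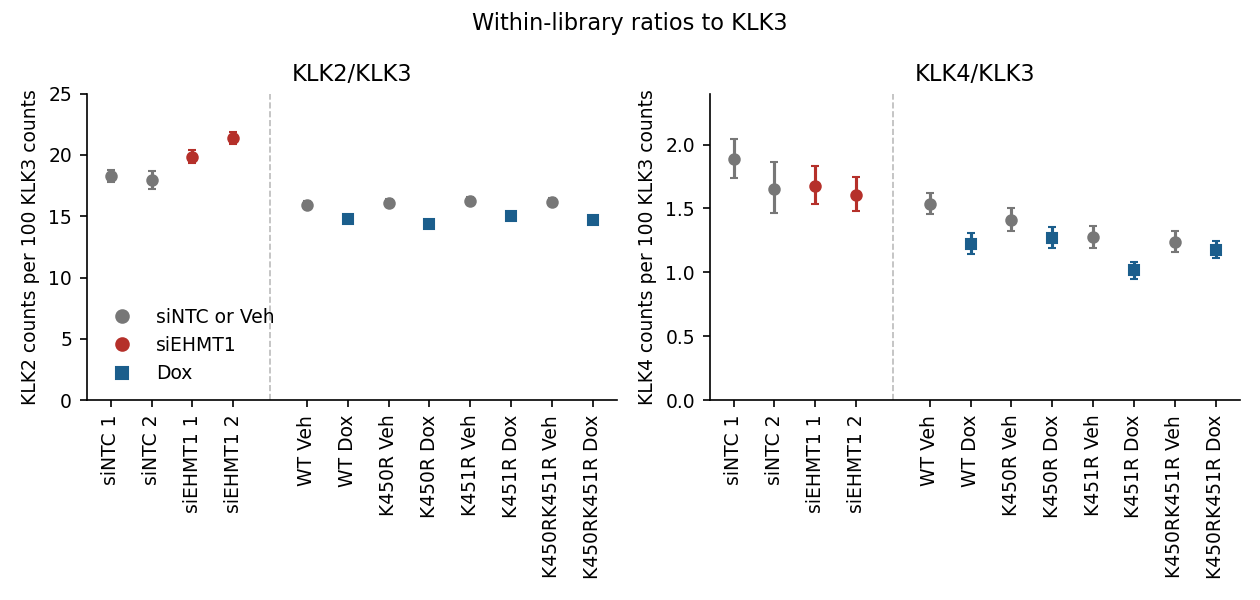
KLK2 counts (left) and KLK4 counts (right) per 100 KLK3 counts in each library, with 95% counting intervals; both axes start at 0. KLK2 lies between 14.4 and 15.02 in the 4 Dox conditions, between 15.95 and 16.2 in the 4 Veh conditions and between 17.9 and 21.4 in the siRNA samples.

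KLK4 per 100 KLK3 counts went from 1.54 to 1.22 in WT, from 1.409 to 1.27 in K450R, from 1.27 to 1.02 in K451R and from 1.24 to 1.18 in K450RK451R, a log2 difference of -0.22 ± 0.13 (SD over 4 lines, lower in 4 of 4, exact permutation p = 0.125, again the smallest possible). A ratio to KLK3 that was lower in all 4 lines was seen for 13.1% of genes tested. In the siRNA samples it was 1.89 and 1.65 with siNTC and 1.68 and 1.61 with siEHMT1, with overlapping groups and a log2 difference of -0.10 (exact permutation p = 0.667). Relative to KLK2, KLK4 was lower by a log2 of -0.29 with siEHMT1 (exact permutation p = 0.333, the smallest possible) and by -0.088 ± 0.15 with Dox, lower in 2 of 4 lines (exact permutation p = 0.5). KLK15 made up 0.174% to 0.259% of the KLK3 count in the siRNA samples and 0.0449% to 0.0844% in the stable lines.

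Some lineage factors and coregulators passed the test with Dox. Of 15 tested lineage factors and coregulators, none passed with siEHMT1, where CREB3L4, NCOA1, NCOR1 and HSP90AA1 had the largest log2 fold changes (0.40, -0.22, -0.17 and -0.25, adjusted p 0.142 to 0.589 by edgeR). With Dox 2 rose and 2 fell, against 2.11% of all genes called (85 rose and 213 fell), with a median log2 fold change of 0.061 against 0.0050 over all genes. FOXA1, the pioneer factor that opens chromatin for other factors, was 163, 174, 218 and 202 CPM with Veh in WT, K450R, K451R and K450RK451R and 187, 241, 277 and 269 CPM with Dox (log2 fold change 0.36, SE 0.06, adjusted p = 0.000418 by edgeR). It was higher with Dox in each line, and the share of all genes for which this held is not given here.

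HOXB13, a homeobox factor of prostate identity, rose by a log2 of 0.19 (SE 0.05, adjusted p = 0.0492 by edgeR), and GATA2, another lineage factor, fell by 0.21 (SE 0.06, adjusted p = 0.0484 by edgeR). HSP90AA1, a cytosolic heat shock chaperone, fell by 0.37 (adjusted p = 0.000486 by edgeR). The GATA2 call was lost under 8 of 15 alternatives, among them DESeq2 and leaving out K450R, K451R or K450RK451R, and the HOXB13 call under 10 of 15, among them leaving out any 1 of the 4 lines. The FOXA1 and HSP90AA1 calls were lost only without the line term, and no alternative turned the sign of any of these 4 genes. The difference from KLK3 was tested in the fit scaled to the KLK3 count, where FOXA1 rose by a log2 of 0.34 (adjusted p = 0.00108 by edgeR), GATA2 fell by 0.23 (adjusted p = 0.0139 by edgeR), HSP90AA1 fell by 0.40 (adjusted p = 0.000177 by edgeR) and HOXB13 had a value of 0.17 without passing (adjusted p = 0.0965 by edgeR). The normalization factor was higher with Dox in each line, and the share of MT-RNR2 was lower with Dox in 3 of 4. Their part in these small changes was not tested.

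**Figure D4:**
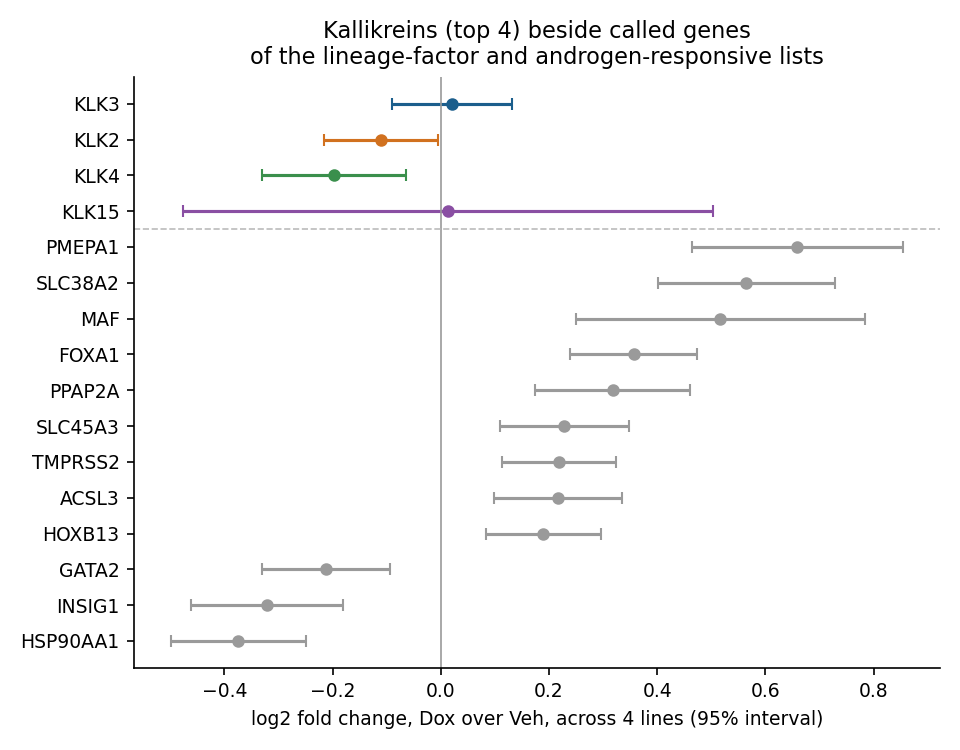
Average log2 fold change of Dox over Veh across the 4 stable lines, with 95% intervals, for the 4 kallikreins tested (top) and for the genes of the lineage-factor and androgen-responsive lists with an adjusted p under 0.05 (grey). The KLK3 interval runs from -0.09 to 0.13, those of KLK2 and KLK4 lie below 0, and FOXA1 and TMPRSS2 lie above 0.

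Androgen-responsive genes as a class gave no common direction. Of 74 tested, 1 rose with siEHMT1 and 7 rose and 1 fell with Dox, with a median log2 fold change of -0.043 and -0.0076 (-0.0021 and 0.0050 over all genes). Over all genes 0.131% were called with siEHMT1 and 2.11% with Dox, where 85 rose and 213 fell. AZGP1, a secreted glycoprotein of prostate fluid, was 27.8 and 23.9 CPM with siNTC and 46.0 and 42.7 CPM with siEHMT1, a log2 fold change of 0.77 (SE 0.13, adjusted p = 0.00860 by edgeR). With Dox the largest changes among these genes were those of PMEPA1 (0.66), SLC38A2 (0.56) and MAF (0.52), which rose, and of HSD17B14 (-0.58), which did not pass (adjusted p = 0.206 by edgeR). INSIG1, a brake on sterol synthesis and the only one that fell, is named after its value was seen (-0.32). Its call was lost under 4 of 15 alternatives (DESeq2, no line term, and without K451R or K450RK451R). The MAF call was lost under 7 of 15 (DESeq2, no line term, either column alone, and without any 1 of the mutant lines). None of the 74 passed the test of mutant lines against WT.

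Prostate secretory and membrane proteins were represented by 12 tested genes in the stable lines, of which 2 rose, and by 13 in the siRNA samples, of which AZGP1 alone passed, against 2.11% and 0.131% of all genes called. TMPRSS2, the androgen-induced membrane protease, was 1181, 1015, 1179 and 1067 CPM with Veh in WT, K450R, K451R and K450RK451R and 1270, 1200, 1427 and 1272 CPM with Dox. Every line was higher with Dox, with a log2 fold change of 0.22 (SE 0.05, 95% interval 0.11 to 0.32, adjusted p = 0.0177 by edgeR). The share of all genes higher in every line is not given here. SLC45A3, also called prostein, rose by 0.23 (SE 0.06, adjusted p = 0.0329 by edgeR) but stayed at 289 CPM in WT. The TMPRSS2 call was lost without K450R, K451R or K450RK451R and without the line term, and the SLC45A3 call under 7 of 15 alternatives, DESeq2 among them. The intervals of both overlap that of KLK3, and their difference from KLK3 comes from the same fit scaled to the KLK3 count. Relative to KLK3, TMPRSS2 rose by a log2 of 0.20 (SE 0.05, adjusted p = 0.0333 by edgeR), and SLC45A3 was higher by 0.21 without passing (SE 0.06, adjusted p = 0.0808 by edgeR).

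The proteins around the kallikrein cascade showed no call. Of 23 activators, inhibitors and substrates, 10 were tested with siEHMT1 and 11 with Dox, and none passed in any comparison. The zymogen activator HPN (hepsin) was 131 and 137 CPM with siNTC and 145 and 142 CPM with siEHMT1. FN1, fibronectin, a substrate of several kallikreins, had the largest change with Dox (-0.21, SE 0.06, adjusted p = 0.0644 by edgeR), going up in WT and down in the other 3 lines. PRSS8, prostasin, was lower in all lines (-0.13, adjusted p = 0.271 by edgeR), as were 10.2% of genes tested. The protease inhibitor SLPI had 4.52 and 3.55 CPM with siNTC and 7.71 and 6.77 CPM with siEHMT1 (0.81, SE 0.27, adjusted p = 0.293 by edgeR). IGFBP3 (-0.38, SE 0.24, adjusted p = 0.650 by edgeR) and FN1 (-0.27, SE 0.14, adjusted p = 0.56 by edgeR) had negative values with siEHMT1. With Dox, SLPI and IGFBP3 had values of -0.17 and -0.12 (adjusted p 0.638 and 0.704 by edgeR). The inhibitors SERPINA3, A2M, PZP, SPINK5 and SPINT4, the substrate SEMG2 and PLG, which encodes plasminogen, never rose above the detection floor.

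**Figure D5:**
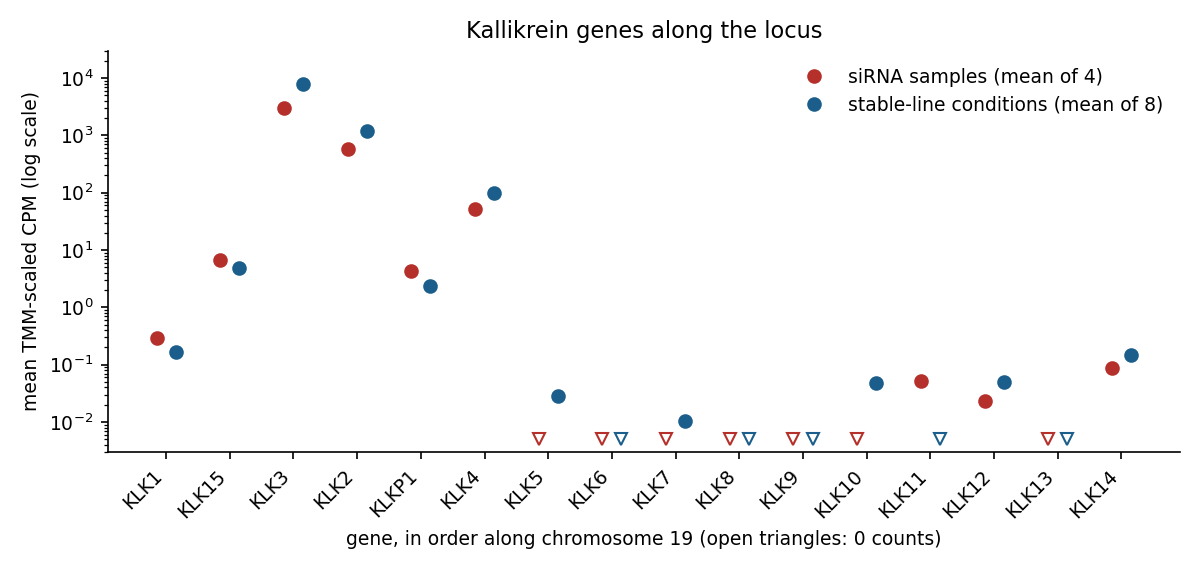
Mean TMM-scaled CPM (log axis) of the kallikrein genes, in order along chromosome 19, over the 4 siRNA samples and the 8 stable-line conditions, with open triangles for genes at 0 counts. KLK3, KLK2, KLK4, KLK15 and KLKP1 stand above 1 CPM, and KLK1 and KLK5 to KLK14 stay below it.

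The kallikreins counted above the floor in all 12 libraries lie next to each other at one end of the cluster. On GRCh37 the order along chromosome 19 is KLK1, KLK15 (51328545 to 51340469, minus strand), KLK3 (51358171 to 51364020, plus), KLK2 (51364824 to 51383823, plus), KLKP1, KLK4 (51409607 to 51414651, minus) and then KLK5 to KLK14, with KLK11 at 51525472 to 51531295 (minus). Besides the members, the pseudogene KLKP1, which lies between KLK2 and KLK4, was the only one above the floor in all 12 libraries, with 13 to 53 counts. KLK1 reached at most 6 counts, and KLK6, KLK8, KLK9 and KLK13 had 0 counts throughout. KLKP1 had log2 fold changes of 0.23 with siEHMT1 and 0.40 with Dox (adjusted p 0.860 and 0.582 by edgeR). From 200 kb before KLK1 to 200 kb after KLK14, 6 other genes were tested and none passed in any of the 3 comparisons. Their median log2 fold change was 0.25 with siEHMT1 and 0.086 with Dox, against -0.0021 and 0.0050 over all genes. The largest values with siEHMT1 were those of C19orf81 (0.78, SE 0.52) and SNORD88A (0.61, SE 0.65), which averaged only 12 and 9 counts. The best counted of the 6, C19orf48, had 0.084 (SE 0.09).

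KLK2, KLK3 and KLK4 had positive correlations with each other over the stable-line conditions. Over the 8 conditions Pearson's r of log2 CPM was 0.49 between KLK3 and KLK2, 0.49 between KLK3 and KLK4 and 0.67 between KLK2 and KLK4 (Spearman's rho 0.48, 0.64 and 0.64). The conditions share lines and scaling, and the ranges are small, with 0.18 on the log2 scale for KLK3, 0.24 for KLK2 and 0.60 for KLK4. Among 9142 genes averaging 100 counts or more, the pattern most like KLK3 was that of RAB33B (r = 0.960), MRPS34 (0.960) and ANAPC16 (0.955). Those nearest to KLK2 were MATR3 (0.985), KDM4C (0.972) and MEAF6 (0.970), and those nearest to KLK4 were MALT1 (0.985), MLPH (0.979) and CCDC24 (0.973). These are the highest of 9142 values each and serve as a description.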

How the data were processed

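RNA-seq of 20 LNCaP samples (total RNA, stranded kit, single-end reads of 51 bases) was deposited by the authors as 2 tables of raw, unscaled counts of reads per Ensembl gene on hg19. The submitters' processing notes name FastQC 0.11.9, STAR 2.7.2 and featureCounts 1.6.4. The annotation release and the strand setting are not given in the sources used here. Gene positions and exon lengths came from GENCODE release 44 on GRCh37, in which 55538 of the 57773 identifiers were found, and promoter windows from RefSeq.

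Each table was scaled by TMM, filtered with edgeR's filterByExpr and tested over all genes with edgeR 4.0.16 (quasi-likelihood, R 4.3.3, Benjamini-Hochberg adjustment, threshold 0.05): siEHMT1 against siNTC, Dox against Veh with the line as a block, and the Dox effect in mutant lines against WT. Whether the samples of an siRNA group came from separate cultures is not stated, so p-values measure the spread between these samples only. Ratios were tested by exact permutation over samples or lines. The detection floor was 3 counts, and 95% intervals of shares are Wilson intervals, which cover counting error only. The members and gene lists were chosen with earlier results of these data known, and some list members are not reported here. Apart from the members, the text names genes from each list for siEHMT1 and for Dox. These are the genes past the threshold or, with none or more than 4, the 4 largest changes among genes averaging 20 counts or more. The 3 genes most like each member are also named. In mutants against WT no gene of these lists passed, and the largest changes there are not named. DESeq2 1.42.0, limma-voom (3.58.1), other normalizations and filters, the legacy quasi-likelihood, single columns, the replicate block and leaving out samples or lines were tried, and scaling to KLK3 and to protein-coding counts was added after the data were seen. The procedures were tested on simulated counts with 1 fixed spread between samples. Of 100 genes changed 2-fold, 88 were called with siEHMT1, 92 with Dox and 64 in mutants against WT. Of 100 with a smaller change, still larger than any log2 fold change of KLK2, KLK3 or KLK4 above, 48, 73 and 13 were called. Small changes can thus be missed, and changes as small as those of KLK2, KLK3 and KLK4 were not simulated. Same-numbered siRNA samples did not deviate together (Pearson -0.01 and Spearman 0.03 over 14532 genes), so the numbers were not used as pairs.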

Additional observations from a re-analysis of the deposited data

How the results depend on the processing

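Over 142 refits of the kallikrein fold changes, 130 kept their sign and their side of the threshold. KLK3 turned positive with siEHMT1 under upper-quartile normalization (0.00090) and without siNTC or siEHMT1 sample 2 (range without 1 sample -0.065 to 0.019), and negative with Dox without the WT line (-0.0058 to 0.038 without 1 line). KLK15 turned negative with Dox under DESeq2 (-0.0052), with column 1 alone (-0.042), when scaled to KLK3 (-0.012) and without K451R or K450RK451R (-0.27 to 0.24 without 1 line), and KLK4 in mutants against WT without K450RK451R (-0.038 to 0.12 without 1 line). With the 16 columns as samples and line and replicate block, which counts 2 sets of reads of 1 sample as replicates, KLK2 (-0.11, adjusted p = 0.00530 by edgeR) and KLK4 (-0.20, adjusted p = 0.00254 by edgeR) passed with Dox. The replicate block in the siRNA samples changed no kallikrein call.

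With siEHMT1, 19 genes passed, against 12 with DESeq2, 12 without a filter, 118 with the replicate block, 40 when scaled to KLK3 and 38 to 110 without 1 sample (a lone sample is assumed to vary like the others). With Dox, 298 passed, against 140 with DESeq2, 1900 with 16 columns and the replicate block, 4 without the line term and 114 to 501 without 1 line. In mutants against WT, 23 passed, against 43 with limma-voom, 15 without a filter and 33 to 101 without 1 line. The log2 ratio of KLK15 to KLK3 with Dox lay between -0.34 and 0.20 without 1 line. The causes were not tested. Depth limits KLK15 (29 to 80 counts) and KLK11 (0 to 2 counts).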

Other observations

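Among the neuroendocrine markers, ENO2, a glycolytic enzyme, was the only one with more than 25 counts in any library. It went from 416 to 330 CPM with Dox in WT, from 372 to 280 in K450R, from 296 to 227 in K451R and from 338 to 251 in K450RK451R, a log2 fold change of -0.39 (SE 0.05, adjusted p = 4.01e-05 by edgeR). It was lower with Dox in 4 of 4 lines, as were 10.2% of genes tested, and the call was lost only without the line term, among 15 alternatives. With silencing, ENO2 was also a smaller share of the library in both samples. It had 311 of 9864743 and 176 of 5593400 counts with siNTC, and 222 of 9453020 and 280 of 12438006 with siEHMT1. Groups that did not overlap were seen for 39.7% of genes, and no neuroendocrine marker passed with siEHMT1. The study reports that EHMT1 activated ENO2. Of the other 6 markers in the list, SYP had 2 to 25 counts, with 7 to 25 in the siRNA samples, NCAM1 had at most 5, and CHGA, CHGB, NEUROD1 and INSM1 had 0 in every library.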
